A study of Mus musculus with 20 samples.

Results

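Glucose uptake, glycolysis and glycogen genes were followed across the hearts of mice with and without Sorbs2, which encodes a scaffold protein of muscle Z-discs. The set holds 37 genes, chosen by symbol for their place in the pathway, of 17243 genes present in both deposited tables. All 37 were found in both tables and all 37 passed the filter on low values at both ages. By role they were 2 glucose transporters, 6 enzymes of upper glycolysis, 3 enzymes that make or remove fructose 2,6-bisphosphate, 9 enzymes of middle and lower glycolysis, 3 genes of lactate exchange, 7 of pyruvate entry and oxidation, 6 of glycogen and 1 of gluconeogenesis.

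RNA-seq of 20 mouse hearts was available in 5 groups, with tissue given as left ventricle or ventricular myocardium. At 6 weeks there were 3 wild-type (WT) and 3 Sorbs2 knockout (KO) mice, and at 6 months 5 WT, 5 KO and 4 KO mice treated with AAV9-Tnnt2-Sorbs2 (KO+AAV). This adeno-associated vector drives Sorbs2 from the promoter of the cardiomyocyte gene Tnnt2 and was injected at P2 (postnatal day 2), and the other groups were untreated, so vector and Sorbs2 were not separated by an empty-vector group. No source used here gives strain, sex or the deleted exons. Each library is labelled as a replicate mouse. The 6-week libraries carry their column names (WT1, WT6, WT16, KO2, KO3 and KO4), which match a group and no single label.

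Heart muscle takes up glucose through the insulin-regulated transporter GLUT4 (Slc2a4) and the constitutive transporter GLUT1 (Slc2a1), phosphorylates it with hexokinase, and either stores it as glycogen or breaks it down to pyruvate. Phosphofructokinase is the committed step, and its activator fructose 2,6-bisphosphate is made and removed by the bifunctional PFKFB enzymes. Pyruvate enters mitochondria through the carrier MPC1-MPC2 and is oxidised by pyruvate dehydrogenase, which the PDK kinases switch off, or is exchanged with lactate by lactate dehydrogenase. Adult ventricle burns mainly fatty acids, and several steps have a muscle-type and a more widely expressed isoform, such as Eno3 and Eno1, Pgam2 and Pgam1, or Pfkm and Pfkl.

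The promoter sequences of 4 members are shown because they stand for the genes of smallest p, among those with a window, of the 13 that were lower in KO hearts at 6 months (Eno3, Mpc2 and Ldhb), and for the 1 member called at both ages (Pfkfb1). The windows run from 250 bases before to 50 bases after a RefSeq start site on GRCm38.p6, and 36 of the 37 members matched the promoter table by symbol; Slc2a4 did not. Capitals mark motif matches on either strand, and a window without capitals holds none of the motifs searched. The Mpc2 window is chr1:165461010-165461309 on the plus strand, the Ldhb window chr6:142507908-142508207 on the minus strand, the Eno3 window chr11:70656926-70657225 on the plus strand, and the Pfkfb1 window, 1 of 4 listed for that gene, chrX:150589666-150589965 on the plus strand. It is the only 1 of those 4 with a motif match. The Pfkfb1 window that holds the annotated gene start, chrX:150587993-150588292, has none.
Eno3: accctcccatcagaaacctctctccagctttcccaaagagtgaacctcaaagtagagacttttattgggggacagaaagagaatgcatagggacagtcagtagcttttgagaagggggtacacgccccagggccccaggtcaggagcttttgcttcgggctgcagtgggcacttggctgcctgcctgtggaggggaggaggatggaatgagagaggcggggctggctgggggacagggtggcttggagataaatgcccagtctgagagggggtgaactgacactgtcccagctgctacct
Mpc2: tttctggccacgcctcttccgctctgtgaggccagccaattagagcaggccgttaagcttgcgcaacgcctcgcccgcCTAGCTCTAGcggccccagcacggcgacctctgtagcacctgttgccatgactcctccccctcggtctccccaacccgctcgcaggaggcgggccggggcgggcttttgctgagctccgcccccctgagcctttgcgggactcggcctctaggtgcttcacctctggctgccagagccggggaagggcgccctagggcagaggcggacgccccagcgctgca
Ldhb: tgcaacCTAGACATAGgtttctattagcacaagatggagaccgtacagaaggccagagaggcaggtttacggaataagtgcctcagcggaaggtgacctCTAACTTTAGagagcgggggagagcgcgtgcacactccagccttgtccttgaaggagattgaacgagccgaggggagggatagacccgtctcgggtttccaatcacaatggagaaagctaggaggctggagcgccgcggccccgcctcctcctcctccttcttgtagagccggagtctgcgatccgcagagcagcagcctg
Pfkfb1: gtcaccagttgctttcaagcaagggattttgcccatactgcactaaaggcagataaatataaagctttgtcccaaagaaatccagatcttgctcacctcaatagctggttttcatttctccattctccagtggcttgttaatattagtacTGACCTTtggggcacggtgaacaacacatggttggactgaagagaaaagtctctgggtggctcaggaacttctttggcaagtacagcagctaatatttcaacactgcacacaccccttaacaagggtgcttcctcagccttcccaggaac

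The motifs searched were AAGGTCA (the half-site of the oestrogen-related receptors, ERR), a loose form of the MEF2 site (CTA, any 4 bases, TAG), ACGTG (the core of the hypoxia response element) and CACGTG (an E-box, which contains ACGTG). The loose match of Mpc2 started at position -172 from the start site and those of Ldhb at -244 and -151. The MEF2 consensus has only A or T in the middle, and each of these 3 matches has a G or C there, so none is a consensus match. The ERR match in the printed Pfkfb1 window started at -100, and the other windows listed for that gene held no match. The loose pattern was in 3.69% of 32851 promoter windows of all genes and in 3 of the 56 windows of the members (Ldhb, Mpc2 and Phka1), and the ERR half-site in 4.72% of all windows and in 3 of 56 (Eno1, Pfkfb1 and Tpi1).

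ACGTG was in 19.6% of all windows and in 22 of the 56 member windows, from 18 genes that included Hk1, Hk2, Aldoa, Gapdh, Pgk1, Pkm, Ldha, Slc2a1 and Pfkfb3. Among the 21 windows of members lower in KO hearts at 6 months, 3 held it (Gapdh, Pdk2 and Pkm). The E-box was in 7.15% of all windows and in 7 member windows (Fbp2, Ldha, Pdk2, Pfkfb2, Pfkfb3, Pfkm and Slc16a1). These matches describe letters in a fixed window and were not tied to binding.

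Sorbs2 itself separated untreated KO from WT libraries at both ages and from KO+AAV libraries at 6 months, while KO+AAV 1 lay within the WT range. At 6 weeks its normalised counts were 1409 to 1989.8 in WT and 276 to 365 in KO, and at 6 months 4562 to 5398 in WT, 494 to 1755 in KO and 4696 to 17923 in KO+AAV. Totals of normalised counts were 6705130 to 8240290 per library at 6 weeks and 11359100 to 13670300 at 6 months. Cardiomyocyte markers were present in every group: the summed level of 10 was 1290320 to 1569400 in WT, 788111 to 1067340 in KO and 1133280 to 1760790 in KO+AAV at 6 months, and none of the 10 was at 0 throughout a group.

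Libraries of the same 6-month group also differed among themselves. The leading axis of within-group deviations over all genes held 36.7% of their variance and put WT 4, WT 5, KO 1, KO 5, KO+AAV 1 and KO+AAV 2 on one side. In 13 members these 6 libraries lay below all other libraries of their own group in all 3 groups (Pfkm, Tpi1, Pgk1, Eno1, Pkm, Slc16a1, Pdha1, Pdhb, Dlat, Pdk1, Pygm, Gys1 and Gbe1), and in 0 members above. The axis was computed over all genes, members included, so such a split is partly built in. The share of all genes that split this way was not computed, and Eno1 alone is uncertain, as given below. Sorbs2 followed the same split: KO 1 and KO 5 were at 1648 and 1755 and the other KO hearts at 494 to 612, and KO+AAV 1 and KO+AAV 2 were at 4696 and 5753 and the other 2 at 15690.3 and 17923. Counts of members are also given without these 6 libraries, which leaves the KO hearts lowest and the KO+AAV hearts highest in Sorbs2. They were picked by their within-group deviations after the data were seen, so leaving them out narrows the spread by construction. Calls gained that way are no added support. By Xist and Y-linked genes, the Xist class held 2 WT (of 5), 0 KO (of 5) and 2 KO+AAV (of 4) hearts of 6 months and 1 of 3 hearts in each group of 6 weeks. Those of 6 months were WT 4, WT 5, KO+AAV 1 and KO+AAV 3. In WT the axis and the class made the same split, so they are not separate checks there. Leaving out the 6 libraries also leaves WT hearts of the Y-linked class only. Pgk1, Phka1, Pfkfb1 and Pdha1 are on the X chromosome.

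**Figure D1:**
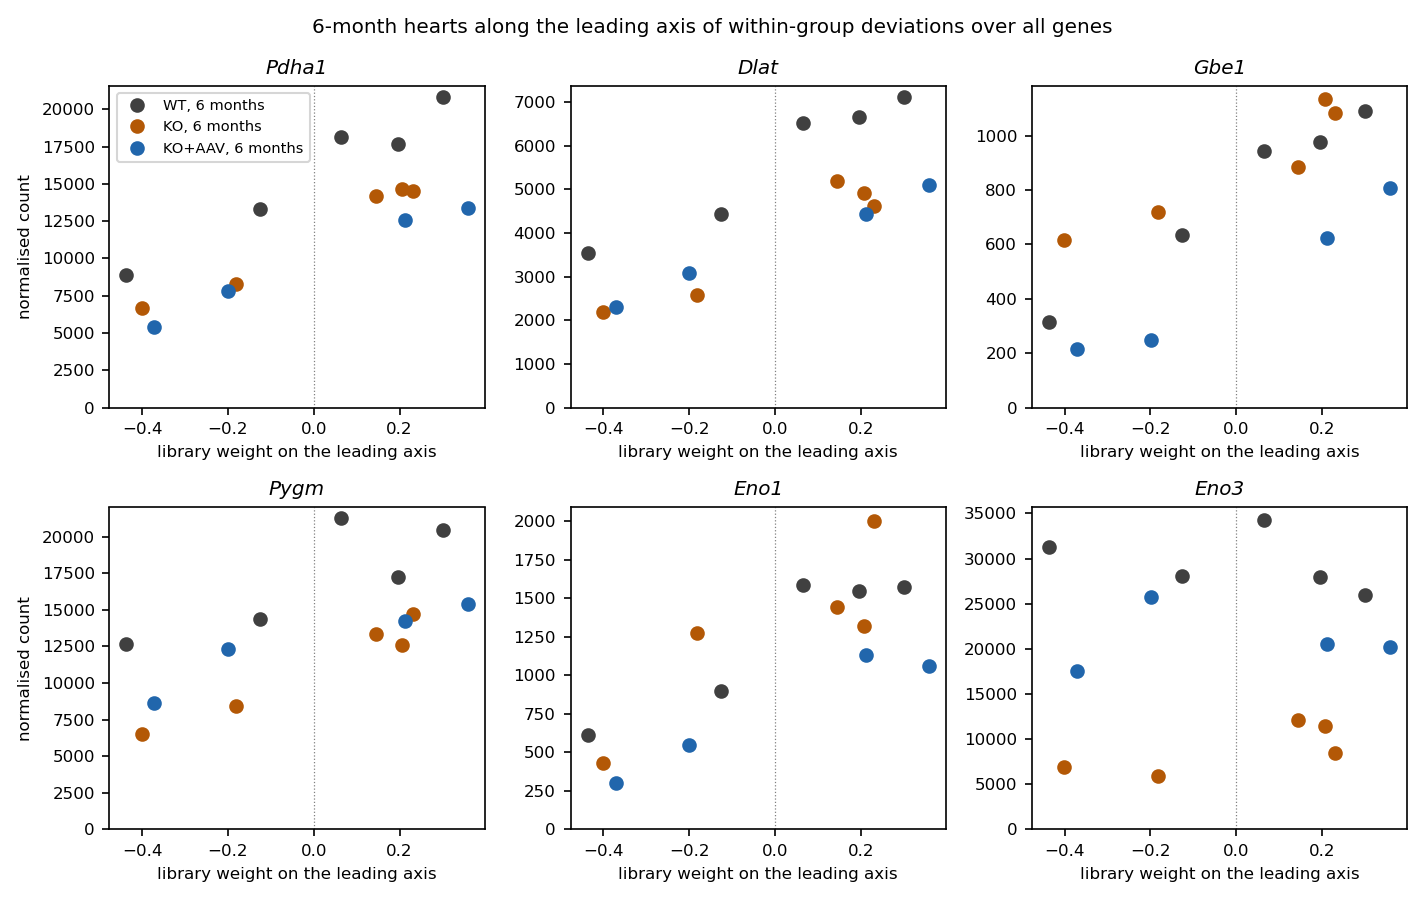
Normalised counts of 6 members (y axes, from 0) in the 14 hearts of 6 months against the library's weight on the leading axis of within-group deviations (x axes); points are libraries, coloured by group. Pdha1, Dlat, Gbe1, Pygm and Eno1 are lower in the 6 libraries of negative weight within each group, while Eno3 separates KO from the other groups on both sides.

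Per kilobase of its main transcript, Gapdh had the highest level of the 37 genes in WT hearts of 6 months, 48245 ± 6743 normalised counts per kb (SD, n = 5), followed by Aldoa at 30546 ± 3547, Ldhb at 19948 ± 2533, Eno3 at 18839 ± 2101 and Pgam2 at 12752 ± 3309. Ldhb and Eno3 lay within one SD of each other. Pfkfb3 was lowest at 45.3 ± 35.5 per kb, with Slc2a1 next at 65.0 ± 14.6, which compares with 2687 ± 179 for Slc2a4. In KO hearts of that age, Gapdh and Aldoa remained first and second at 33185 ± 1525 and 22611 ± 1294, and Eno3 was at 5732 ± 1750. Together the members made up 2.74 ± 0.15% of all normalised counts in WT, 2.06 ± 0.19% in KO and 2.53 ± 0.26% in KO+AAV (n = 5, 5 and 4).

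In young hearts, in the comparison of KO with WT hearts of 6 weeks, Pfkfb1 was the only member that passed the test. Pfkfb1 (chromosome X, 150588229 to 150643878, mm10; 14 exons) encodes the PFKFB isoform best known from liver and skeletal muscle. Its normalised counts were 141, 139 and 148 in WT1, WT6 and WT16, and 32.4, 29.0 and 24.0 in KO2, KO3 and KO4. The groups were far apart, with no KO library near the lowest WT library. The log2 change was -2.29 ± 0.25 (SE), a 4.90-fold fall, with an adjusted p of 0.00308 (limma on log2(normalised count + 1), Benjamini-Hochberg over 13242 genes). It kept its call in all 12 alternative settings, with an adjusted p of at most 0.0435. Of all genes tested at this age, 0.589% were called.

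The other 36 members did not pass the test with 3 hearts a group, which does not show that they were alike. By limma 4 of 37 had an unadjusted p under 0.05 (Pfkfb1, Pfkfb3, Phkg1 and Eno3). The share of all genes under that limit was not taken, so this count has no background beside it. Pfkfb3, the inducible PFKFB isoform, was at 81.7, 72.1 and 133 in WT and 138, 226 and 221 in KO (log2 1.04 ± 0.29, adjusted p = 0.126). The highest WT value lay just under the lowest KO value. Phkg1, the catalytic subunit of muscle phosphorylase kinase, was at 561, 355 and 439 in WT and 229.9, 307 and 306 in KO (log2 -0.67 ± 0.22, adjusted p = 0.198). The median log2 change of the 37 members was -0.14, beside 0.01 for all genes tested, and 26 of 37 were below 0. For 10 cardiomyocyte markers the median was -0.42, with 9 of 10 below 0. For 10 fibroblast markers it was 0.54, with 8 of 10 above 0. Groups did not overlap in 5 of 37 members (Pfkp, Pfkfb1, Pfkfb3, Phkg1 and Gys1), beside 21.2% of all genes.

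**Figure D2:**
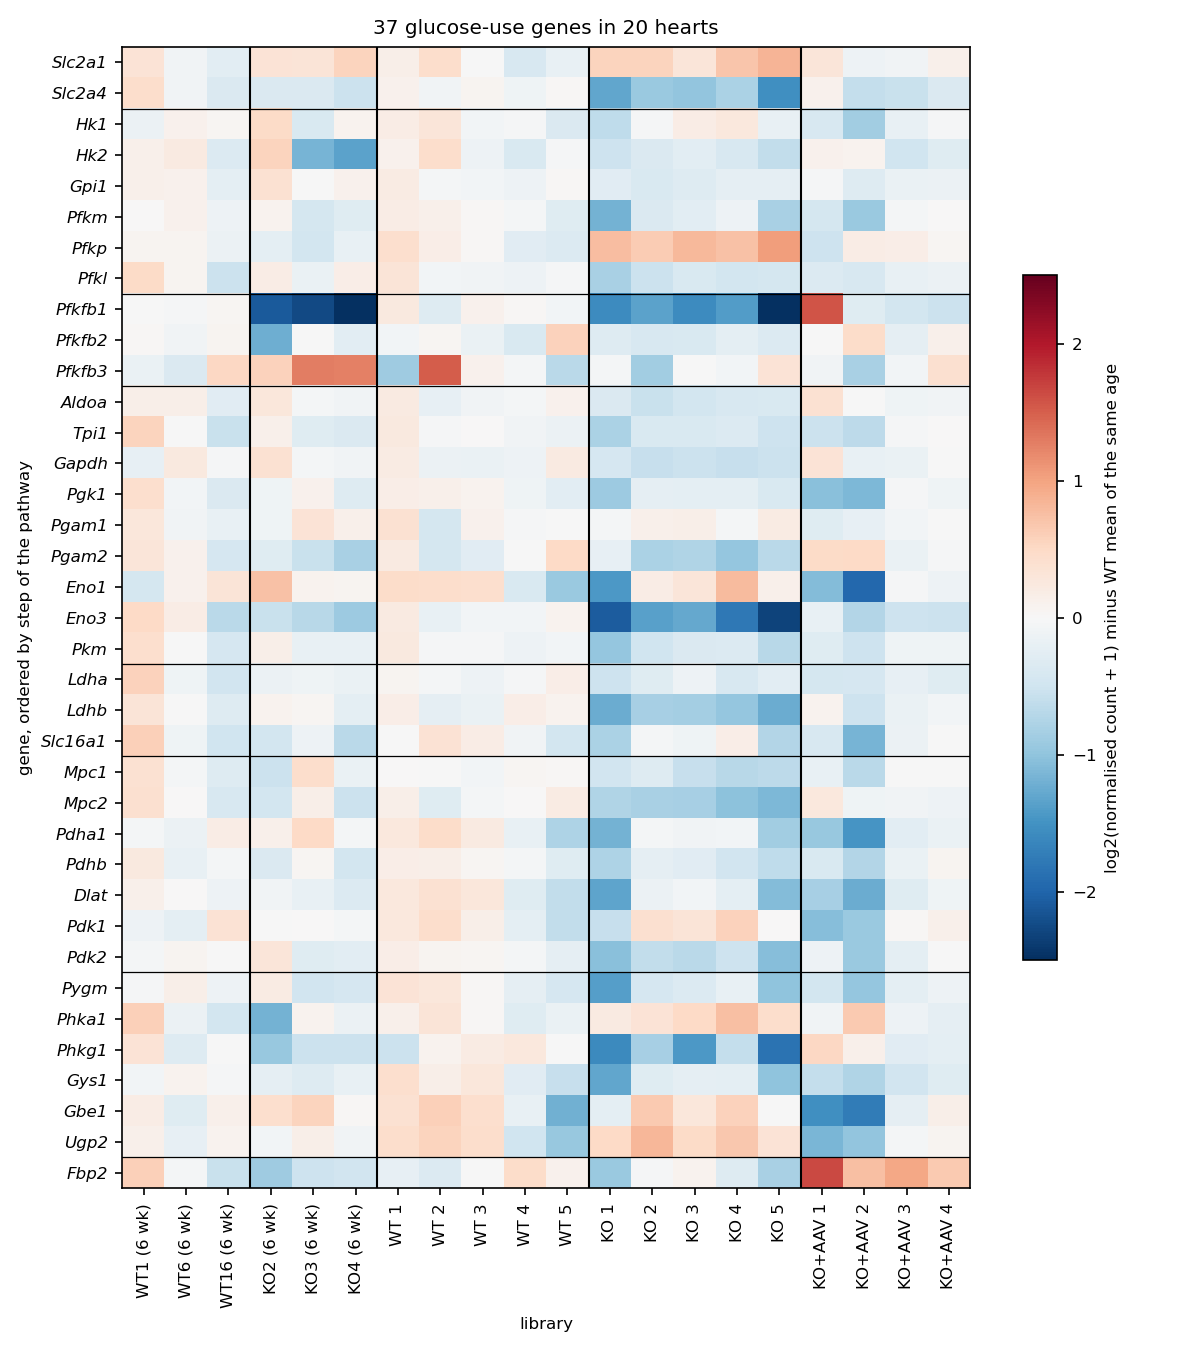
Log2(normalised count + 1) of the 37 members (rows, by step of the pathway) in the 20 hearts (columns), as the difference from the WT mean of the same age; blue is lower and red higher. Pfkfb1 is blue in KO hearts of both ages, and Eno3, Slc2a4, Ldhb and Mpc2 are blue in the 5 KO hearts of 6 months and paler in KO+AAV.

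At 6 months, where KO and WT hearts were compared again, most of the changes of the members ran downwards. Of the 37 members 13 were lower in KO and 2 were higher, while 8.18% of the 13419 genes tested were lower and 8.13% higher (16.3% called in all). The median log2 change of the members was -0.45, beside 0.00 for all genes, and 30 of 37 were below 0. Groups did not overlap in 15 of 37 members, beside 13.8% of all genes. In bulk tissue, fewer cells of a type and less RNA per cell cannot be told apart.

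Beside these changes, 4 of 10 cardiomyocyte markers were lower (Ckm, Myh6, Myl3 and Tnni3) and 6 of 10 fibroblast markers higher in KO hearts of 6 months, and none of the 10 endothelial markers was called (limma). The cardiomyocyte list had a median log2 change of -0.60, with 9 of 10 below 0. Of these 10 markers 4 were called lower and 0 higher, beside 13 of 37 members lower and 2 higher. A downward shift was thus not particular to the members. The fibroblast list had a median of 0.74, with 8 of 10 above 0. Of the skeletal muscle markers 2 of 4 tested were lower (Ckm and Tnni2), of the smooth muscle and pericyte markers Acta2 and Abcc9 were lower and Cspg4 higher, the macrophage marker Fcgr1 was higher, and the atrial marker Nppa was higher (log2 3.36). No adipocyte (2 tested) or erythroid (7 tested) marker was called. The summed fibroblast markers were 28121 to 42647 in WT and 35948 to 53576 in KO. Their part in the members' changes was not tested. Without the 6 libraries of the leading axis, 23 members were lower and 1 was higher, beside 9.9% of all genes lower and 7.58% higher. Hk2, Gpi1, Pfkm, Aldoa, Pgk1, Pdha1, Pdhb, Dlat, Pygm and Gys1 then also passed the test as lower. As these libraries were picked by their within-group deviations, the added calls are given as values only. Under equal library totals, which moved the median of all genes to 0.16, 8 members were lower and 3 higher, beside 4.87% and 13.2% of all genes, and 73.1% of all called genes were higher in place of 49.8%.

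The 2 glucose transporters moved in opposite directions in KO hearts of 6 months. Slc2a4 (chromosome 11, 69942539 to 69948188, mm10) had normalised counts of 7279, 6362, 7083, 6254 and 6936 in WT 1 to WT 5, and 2759, 3570.0, 3410.3, 3913 and 2326 in KO 1 to KO 5. All 5 KO hearts were below all WT hearts, and KO 5 was lowest. The log2 change was -1.11 ± 0.16, a 2.16-fold fall (adjusted p = 0.000257, limma), which held in all 25 alternative settings.

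Slc2a1, the transporter that is abundant in fetal heart and in endothelium, was at 229, 283, 208, 158 and 183 in WT and 307, 307, 256, 338 and 377 in KO. Only WT 2 reached into the KO range. It rose 1.51-fold (log2 0.60 ± 0.16, adjusted p = 0.019, limma). The call was lost in 5 of 25 settings, with adjusted p up to 0.189: without WT 4, without KO 5, with the Xist class as covariate, in Y-linked libraries alone and without the 6 libraries of the axis.

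Among the 6 enzymes of upper glycolysis, the phosphofructokinase isoforms parted. Pfkp, the platelet-type isoform (chromosome 13, 6579768 to 6648777, mm10), was at 1060.5, 886, 802, 652 and 622 in WT and 1356, 1229, 1383, 1317 and 1632 in KO hearts of 6 months. Every KO heart was above every WT heart. It rose 1.74-fold (log2 0.80 ± 0.17, adjusted p = 0.00355, limma). At 6 weeks the order was the other way, with 805, 805 and 684 in WT and 644, 554 and 673 in KO, and that difference did not pass the test (log2 -0.29 ± 0.18, adjusted p = 0.468).

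Pfkl, the liver-type isoform, was at 2736, 2082, 2043, 1999 and 2145 in WT and 1252, 1512, 1681, 1586 and 1606 in KO hearts of 6 months. It fell in KO without overlap (log2 -0.52 ± 0.12, adjusted p = 0.00683, limma). Pfkm, the muscle isoform and the most abundant of these 3 per kilobase, was at 13284 to 18725 in WT and 7199 to 15055 in KO, which overlapped (log2 -0.55 ± 0.22, adjusted p = 0.109). The hexokinases Hk1 and Hk2 and phosphoglucose isomerase Gpi1 did not pass the test (log2 -0.08, -0.43 and -0.29). Gpi1 was without overlap, at 9370.0 to 11898 in WT and 7835 to 8737 in KO.

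Of the 3 PFKFB genes, Pfkfb1 fell again at 6 months. It was at 155, 104, 139.7, 133 and 125 in WT and 43.1, 50.7, 43.2, 49.0 and 19.7 in KO. KO 5 was lowest and no KO heart reached the lowest WT heart. The log2 change was -1.71 ± 0.35, a 3.26-fold fall (adjusted p = 0.00359, limma). Pfkfb2, the cardiac isoform, did not pass the test (1904 ± 521 in WT, 1466 ± 64.1 in KO, n = 5 each, log2 -0.34, adjusted p = 0.187), nor did Pfkfb3 (log2 -0.13, adjusted p = 0.87), of which WT 2 alone held 496.

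In middle and lower glycolysis 5 of 9 enzymes fell and 0 rose in KO hearts of 6 months. Eno3, the muscle enolase (chromosome 11, 70657202 to 70662513, mm10; 12 exons), whose promoter is printed above, fell most of the 37 and had the smallest p. It was at 34242, 25912, 27899.8, 28013 and 31252 in WT and 6932, 11394, 12146, 8487 and 5868 in KO. All 5 KO hearts were far below all 5 WT hearts. The log2 change was -1.76 ± 0.20 (close to the -1.71 of Pfkfb1), a 3.40-fold fall (adjusted p = 2.67e-05, limma). At 6 weeks it was at 12994, 10415 and 5759.5 in WT and 6221, 5723 and 4889 in KO, which overlapped (log2 -0.72 ± 0.30, adjusted p = 0.276).

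Pgam2, the muscle phosphoglycerate mutase, was at 12132, 7739, 8609, 10422 and 14655 in WT and 9016, 6007, 6159, 5349 and 6536 in KO. Only KO 1 reached into the WT range. It fell 1.60-fold (log2 -0.68 ± 0.20, adjusted p = 0.0304, limma). The call was lost in 11 of 25 settings, among them each setting without WT 1, 4 or 5 or without KO 2, 3, 4 or 5, with adjusted p up to 0.221.

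Gapdh, Tpi1 and Pkm, which serve glycolysis in most cell types, fell by less. Gapdh was at 60973 to 79976 in WT and 45553 to 50880.4 in KO (log2 -0.53 ± 0.17, adjusted p = 0.0413, limma), and Tpi1 at 10712 to 13923 and 6803 to 9327 (log2 -0.48 ± 0.16, adjusted p = 0.0452). Pkm was at 18705 to 23988 in WT and 10426 to 16002 in KO (log2 -0.57 ± 0.15, adjusted p = 0.0173). None of the 3 overlapped between groups. The calls were not firm: Gapdh lost its call in 17 of 25 settings and Tpi1 in 15, including the removal of single libraries in both groups, and Pkm in 4, including without WT 1 (adjusted p up to 0.251, 0.38 and 0.159).

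The 4 other genes of this stretch did not pass the test at 6 months. Aldoa, the main aldolase of muscle, was at 40096 to 53499.5 in WT and 31109.5 to 35957 in KO without overlap (log2 -0.43 ± 0.15, adjusted p = 0.0722). Pgk1 was at 5375 to 7230.2 and 3423 to 5492 (log2 -0.40, adjusted p = 0.245), and Pgam1, the widely expressed mutase, at 973 to 1725 and 1278 to 1521 (log2 0.07, adjusted p = 0.79). Gapdh shares 58.4% of its 50-base words with other genes, Pgk1 68.0%, Pgam1 41.5% and Pkm 23.7%, so their counts are uncertain. Of the exonic bases of Pkm, 15.3% also overlap the gene Gm49759 on the same strand. Aldoa shares 8.5% and Tpi1 6.8%, while Eno3 and Pgam2 share 0.0%.

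Eno1, the widely expressed enolase, varied widely within groups. It was at 1587, 1575, 1550.1, 897 and 609 in WT, at 428, 1321, 1442, 2004 and 1274 in KO and at 547, 296, 1134 and 1059 in KO+AAV. Low and high libraries occurred in each group. Its copy Eno1b, which shares 48.4% of the 50-base words of Eno1, held 998, 379, 638, 1471 and 2257 in the same WT hearts, 1718, 692, 759.9, 11.3 and 1171 in KO and 2265, 2140.4, 1242 and 1238 in KO+AAV. The 4 hearts lowest in Eno1 (WT 5, KO 1, KO+AAV 1 and KO+AAV 2) were the 4 highest in Eno1b, and the sum of both ran only from 1954 to 2865 over the 14 hearts. No source used here says how reads were divided between the 2 genes, so Eno1 alone is uncertain. The sum was 2392 ± 352 in WT, 2164 ± 177 in KO and 2480.2 ± 228 in KO+AAV (n = 5, 5 and 4).

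Lactate dehydrogenase shifted at 6 months. Ldhb (chromosome 6, 142490249 to 142507957, mm10), the heart-type subunit whose promoter is shown above, was at 28899.5, 22023, 22911, 28801 and 27423 in WT and 11003, 14572, 14408, 13234 and 10987 in KO. No KO heart came near the lowest WT heart. It fell 2.03-fold (log2 -1.02 ± 0.16, adjusted p = 0.000415, limma). Ldha, the muscle-type subunit, was at 9889 to 12059 in WT and 7579.5 to 9920.1 in KO (log2 -0.32 ± 0.12, adjusted p = 0.0783), and the lactate transporter Slc16a1 at 2363 to 4189 and 1862 to 3661 (log2 -0.30, adjusted p = 0.455). Ldhb shares 21% of its 50-base words with the gene Gm5514.

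In pyruvate entry and oxidation 3 of 7 genes fell and 0 rose at 6 months. Mpc2, a subunit of the mitochondrial pyruvate carrier (chromosome 1, 165460637 to 165481214, mm10), was at 5166, 3788, 4558, 4719.6 and 5372 in WT and 2778, 2673, 2619.8, 2296 and 2155 in KO. It fell 1.88-fold without overlap (log2 -0.91 ± 0.13, adjusted p = 0.000206, limma). Its partner Mpc1 was at 4109, 4052, 3889, 4222 and 4177 in WT and 2934, 3284, 2757, 2524 and 2595 in KO. The WT hearts lay close together and all above the KO hearts (log2 -0.54 ± 0.13, adjusted p = 0.0106), though equal totals and Y-linked libraries alone ended the call (adjusted p up to 0.0662). Mpc1 shares 14.8% of its 50-base words with other genes, and 24.4% of its exonic bases overlap an antisense gene.

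Pdk2, a kinase of pyruvate dehydrogenase, was at 7132, 6639, 6539, 6117 and 5416 in WT and 3062, 4142, 3987, 4409 and 3019.8 in KO. It fell 1.72-fold without overlap (log2 -0.79 ± 0.17, adjusted p = 0.00521, limma). Pdk1 did not pass the test, at 1534 to 3176 in WT and 1577 to 3502 in KO (log2 0.15, adjusted p = 0.793). The subunits of the complex itself did not pass the test with all libraries: Pdha1 had a log2 change of -0.45 ± 0.31, Pdhb of -0.48 ± 0.16 and Dlat of -0.58 ± 0.29 (adjusted p = 0.371, 0.055 and 0.204). Without the 6 libraries of the leading axis the same 3 genes had log2 changes of -0.38 ± 0.099, -0.45 ± 0.106 and -0.46 ± 0.095 and adjusted p of 0.0235, 0.0155 and 0.00784 (limma). All 3 are among the members that split along the axis. Removing those libraries therefore narrows their spread by construction, and the smaller p is no added support. Pdhb shares 30.3% of its 50-base words with the gene Gm6123.

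**Figure D3:**
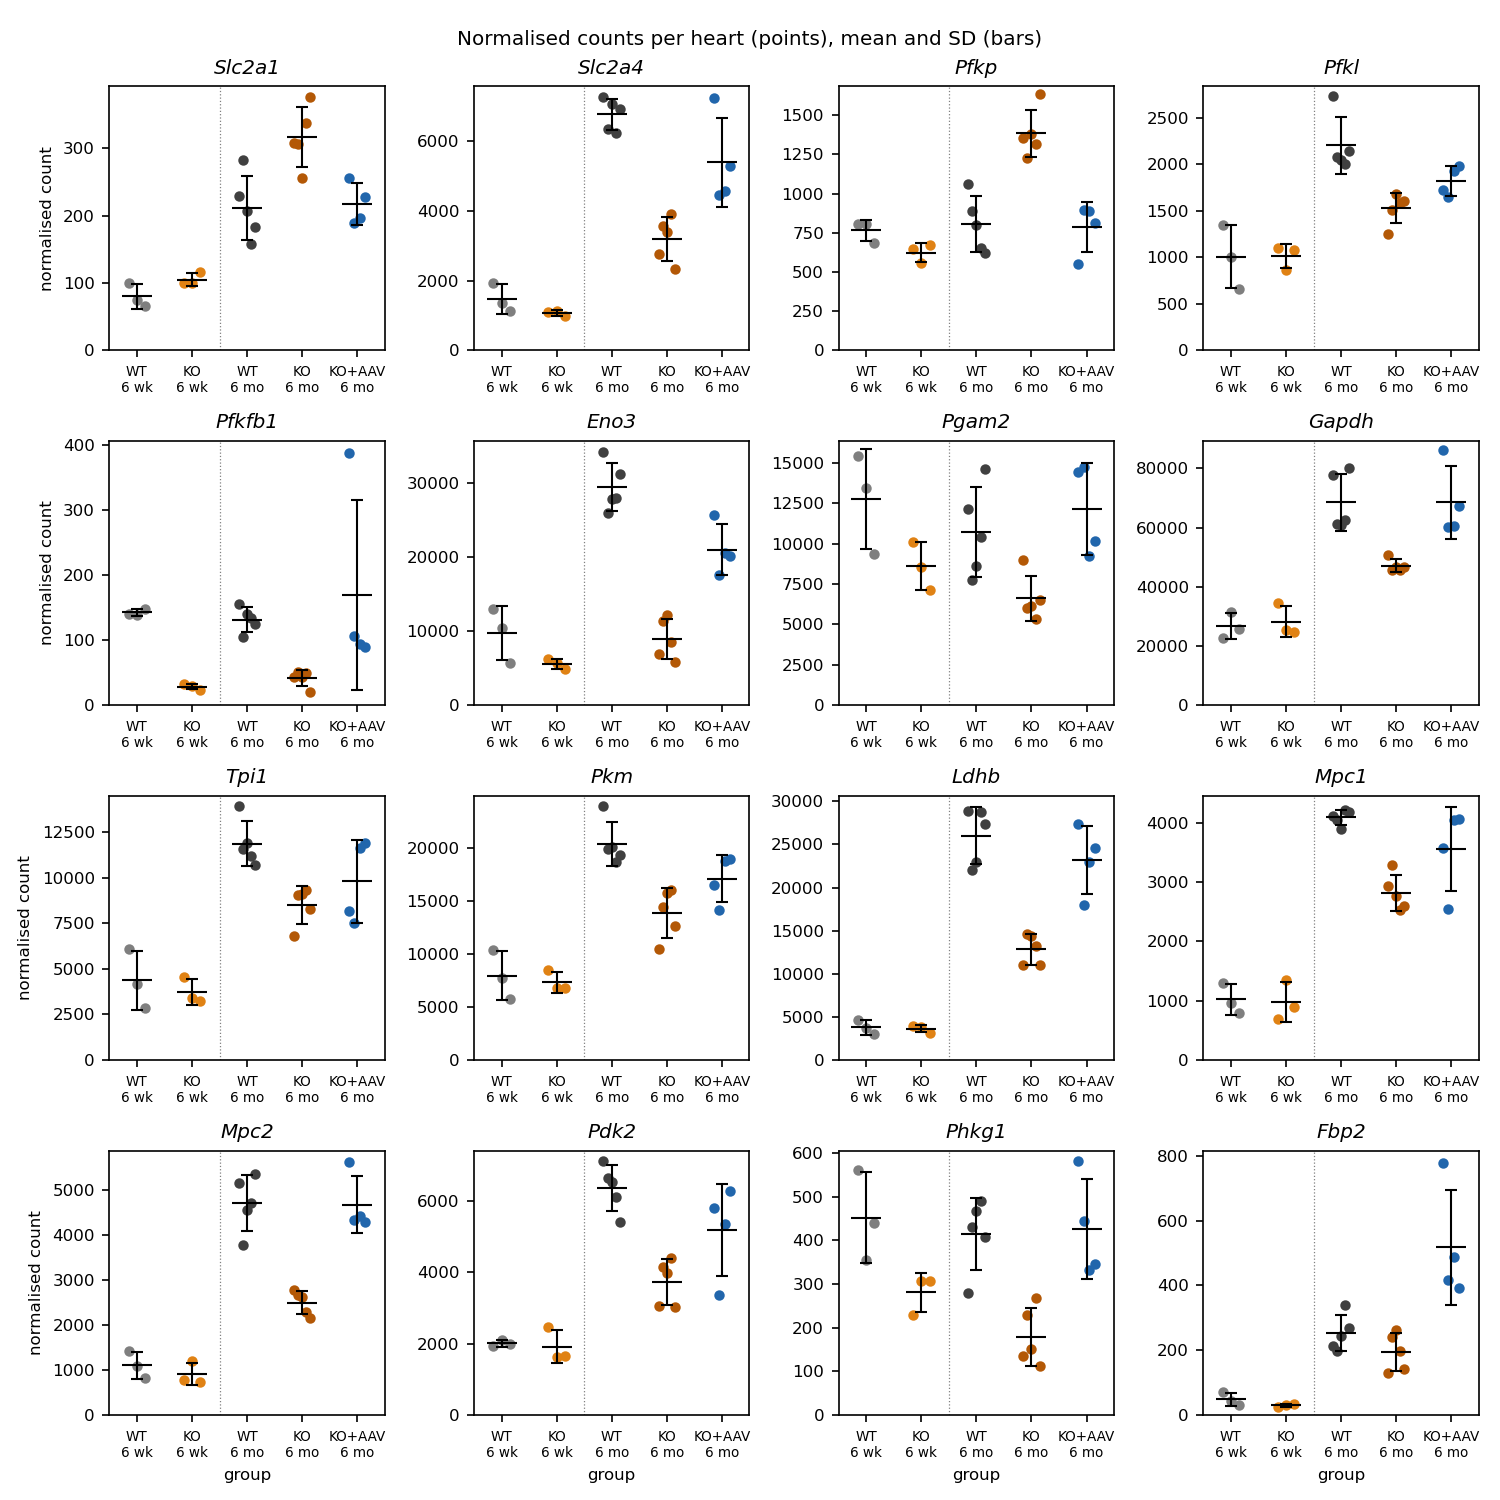
Normalised counts (y axes, from 0) of 16 members in the 5 groups; points are hearts, and bars give the mean and SD. Slc2a4, Eno3, Ldhb, Mpc2, Pdk2 and Phkg1 are lower in all 5 KO hearts of 6 months than in all WT hearts, Pfkp is higher, and Pfkfb1 is lower at both ages.

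Of the 6 glycogen genes, Phkg1 fell at 6 months. It was at 279.7, 431, 468, 489 and 407 in WT and 135, 228, 151, 268 and 113 in KO. The highest KO heart lay just below WT 1, the lowest of its group. The log2 change was -1.26 ± 0.24, a 2.39-fold fall (adjusted p = 0.00197, limma). Phka1, the regulatory alpha subunit of the same kinase, was at 517 to 800.4 in WT and 747 to 1068 in KO (log2 0.45 ± 0.17, adjusted p = 0.0897).

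The glycogen phosphorylase Pygm (log2 -0.66 ± 0.24, adjusted p = 0.0718), glycogen synthase Gys1 (log2 -0.61 ± 0.23, adjusted p = 0.0825), the branching enzyme Gbe1 (log2 0.25, adjusted p = 0.742) and Ugp2, which makes UDP-glucose (log2 0.57, adjusted p = 0.228), did not pass the test at 6 months. Ugp2 was at 6567, 7089.8, 6540.4, 3418 and 2483 in WT and 6803, 8603, 6751, 7707 and 6116 in KO. WT 4 and WT 5, both among the 6 libraries of the leading axis and both of the Xist class, were far below the other WT hearts. WT and KO otherwise overlapped. Fbp2, the muscle fructose-bisphosphatase, was at 196 to 339 in WT and 129.8 to 262 in KO (log2 -0.40, adjusted p = 0.282).

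KO hearts given the vector were compared with untreated KO hearts to ask what returning Sorbs2 does. Of the 37 members 8 were higher and 2 lower in KO+AAV, beside 5.55% of all genes higher and 5.69% lower (11.2% called). The 8 were Slc2a4, Pfkfb1, Pgam2, Eno3, Ldhb, Mpc2, Phkg1 and Fbp2, and the 2 were Pfkp and Ugp2. The median log2 change of the members was 0.18, beside 0.00 for all genes, and groups did not overlap in 13 members, beside 14.1% of all genes. Both comparisons of 6 months use the same 5 KO hearts, so opposite signs are partly built in and are given as values only. Without the 6 libraries of the axis, which leaves 3 WT, 3 KO and 2 KO+AAV hearts, 9 members were higher and 4 lower, beside 4.85% and 5.61% of all genes.

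Beside these changes, 3 of 10 cardiomyocyte markers were higher in KO+AAV than in KO (Ckm, Tnni3 and Tnnt2, median log2 of the list 0.67) and 4 of 10 fibroblast markers lower (Col1a1, Col1a2, Mfap5 and Pdgfrl, median -0.64), with fibroblast sums of 30214 to 39920 in KO+AAV. Of the skeletal muscle markers 1 of 4 tested was higher (Ckm, median of the list 1.04), the endothelial marker Tie1 was higher, and the atrial marker Nppa was lower. Acta2, Cspg4 and Myh11 of the smooth muscle and pericyte list were called, 2 higher and 1 lower. Their part in the members' changes was not tested.

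Eno3 was at 25758, 17543, 20562 and 20205 in KO+AAV 1 to KO+AAV 4, above all KO hearts (5868 to 12146) and below all WT hearts (25912 to 34242). It was 2.41-fold higher than in KO (log2 1.27 ± 0.21, adjusted p = 0.00221, limma), and its log2 difference from WT was -0.49 ± 0.21 (adjusted p = 0.236). Mpc2 was at 5635, 4342, 4438 and 4308, within the WT range except for KO+AAV 1, which was above it. It was 1.87-fold higher than in KO (log2 0.90 ± 0.14, adjusted p = 0.00125), and the call held in all 25 settings.

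Ldhb was at 27373, 17986, 22905 and 24583 in KO+AAV (log2 0.85 ± 0.17 against KO, adjusted p = 0.00558, limma), and Phkg1 at 582, 444, 333 and 346 (log2 1.29 ± 0.25, adjusted p = 0.00558). All 4 treated hearts were above all KO hearts for both genes, and Phkg1 lost its call without the 6 libraries of the axis. Slc2a4 was at 7249.6, 4466, 4582 and 5289, with KO+AAV 1 at the WT level and the other 3 between KO and WT (log2 0.75 ± 0.17, adjusted p = 0.0119). The Slc2a4 call was lost without KO+AAV 1, with the Xist class as covariate and in Y-linked libraries alone (adjusted p up to 0.133).

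Pfkfb1 was at 387, 106, 94.4 and 90.01 in KO+AAV. All 4 values were above the KO hearts, but KO+AAV 1 was over 3 times each of the others and carried the mean of 169 ± 146 (SD, n = 4). The log2 change against KO was 1.78 ± 0.38 (adjusted p = 0.00807, limma). Without the 6 libraries of the axis, KO+AAV 1 among them, it was 0.94 ± 0.22 (adjusted p = 0.0263).

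Pgam2 was at 14465, 14744, 9261 and 10168 in KO+AAV (log2 0.87 ± 0.21, adjusted p = 0.0176, limma), above all KO hearts; the call was lost without KO+AAV 1 or KO+AAV 2, with the Xist class as covariate and in Y-linked libraries alone. Pfkp was at 553, 894, 887 and 813, below every KO heart (log2 -0.83 ± 0.18, adjusted p = 0.00807), and held in all 25 settings. Ugp2 was at 2187, 2445, 4632 and 5042, below every KO heart (log2 -1.10 ± 0.32, adjusted p = 0.037), and lost its call in 9 settings, including without KO 2, 3, 4 or 5 and without KO+AAV 1 or 2 (adjusted p up to 0.193).

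Fbp2 (chromosome 13, 62836877 to 62858422, mm10) was higher in all 4 KO+AAV hearts than in any untreated heart of 6 months. It was at 778, 416, 487 and 393, while KO hearts ran from 129.8 to 262 and WT hearts from 196 to 339. Against KO it was 2.65-fold higher (log2 1.41 ± 0.25, adjusted p = 0.00304, limma), and against WT the log2 difference was 1.01 ± 0.25 (adjusted p = 0.0563). In Y-linked libraries alone, where 2 KO+AAV hearts remain, the calls of Fbp2, Eno3, Ldhb, Pfkfb1 and Phkg1 against KO were lost and 3 members in all were called.

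Against WT, 0 of 37 members were called in KO+AAV by limma at an adjusted p under 0.05, beside 1.33% of all genes (0.611% higher, 0.715% lower). An unadjusted p under 0.05 was found in 6 members (1 higher, Fbp2, and 5 lower), and the share of all genes under that limit was not taken. The median log2 difference of the members was -0.27, beside 0.00 for all genes, with 29 of 37 below 0. Groups did not overlap in 4 members (Pfkl, Eno3, Ldha and Fbp2), beside 5.4% of all genes. Without the 6 libraries of the axis 6 members were called, beside 1.86% of all genes higher and 3.14% lower: Fbp2 was higher (log2 1.01), and Slc2a4, Pdha1, Dlat, Gys1 and Ugp2 were lower (log2 -0.49, -0.53, -0.51, -0.68 and -0.48).

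**Figure D4:**
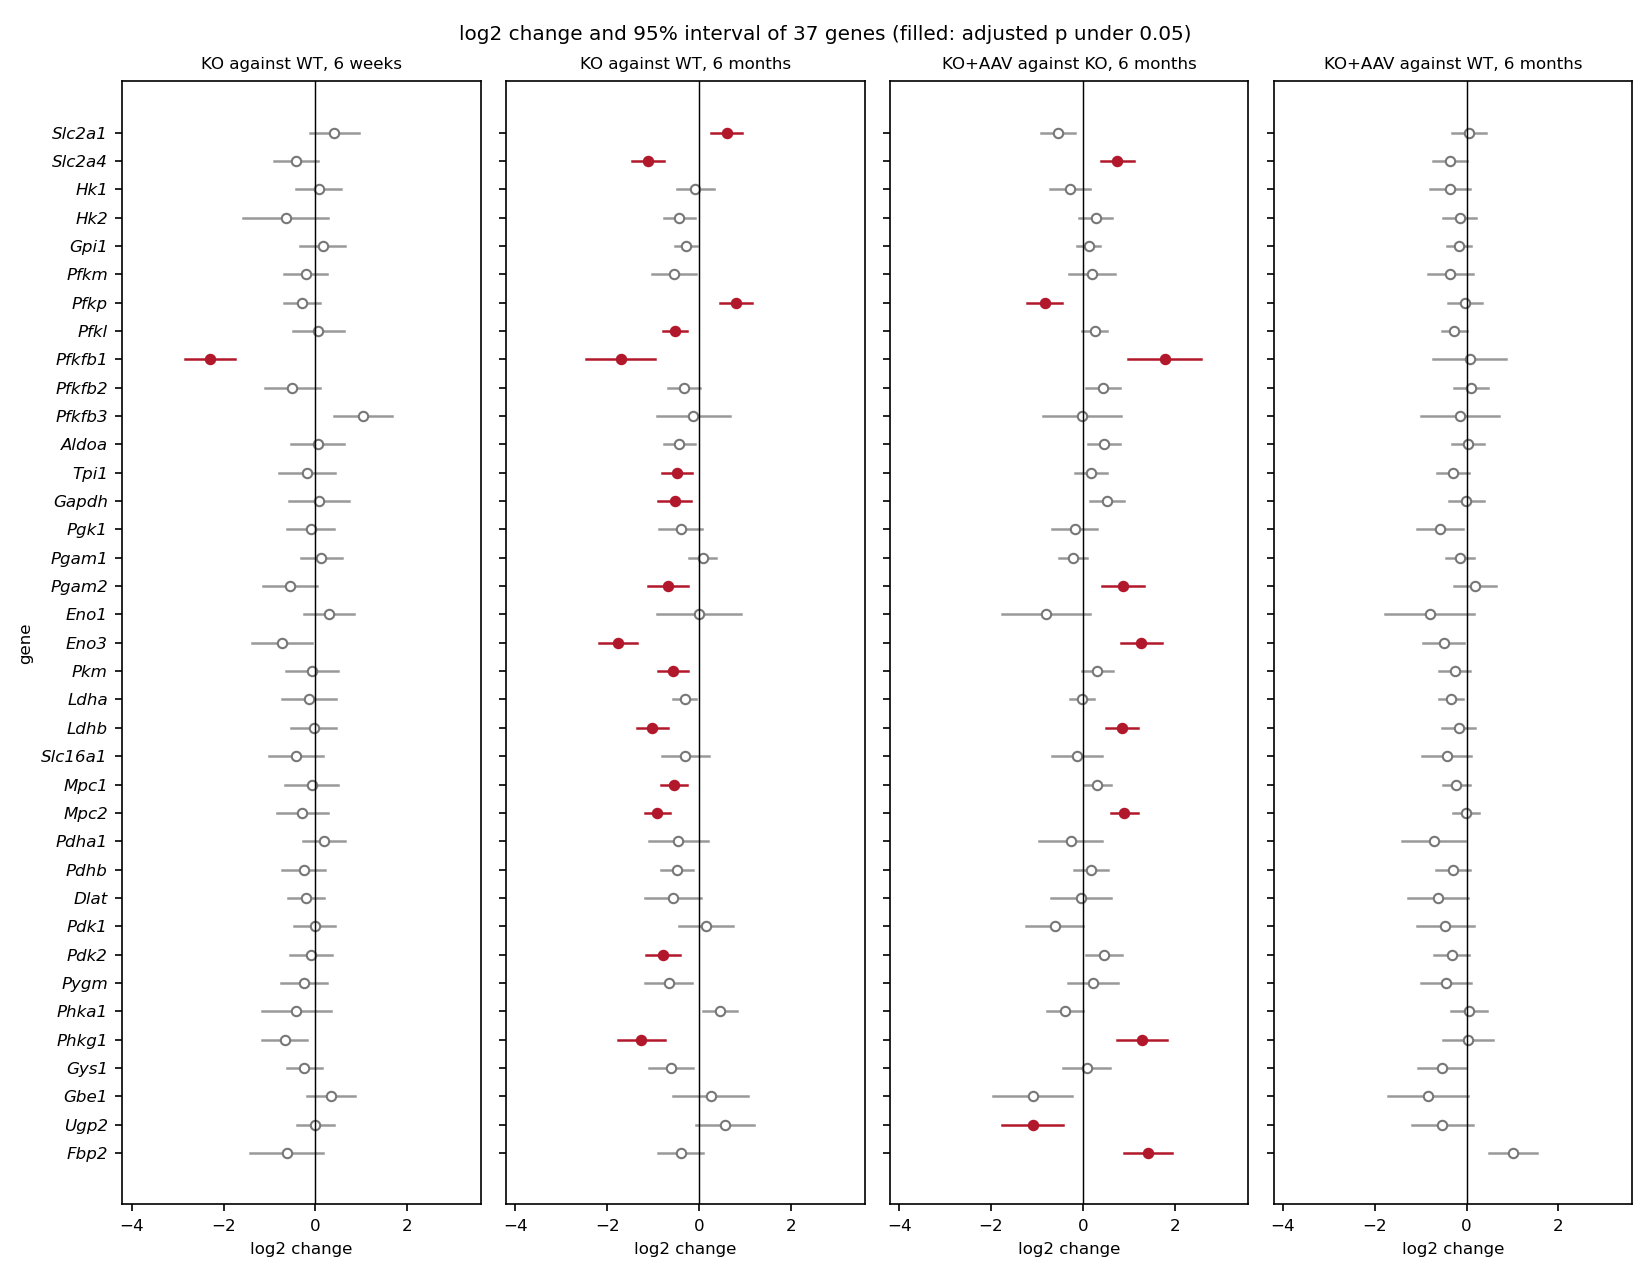
Log2 change with its 95% interval (x axes) of the 37 members (rows) in 4 comparisons; filled red points passed an adjusted p under 0.05 over all genes. Pfkfb1 is filled at 6 weeks, 15 members are filled for KO against WT at 6 months, 10 for KO+AAV against KO and 0 for KO+AAV against WT.

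The KO effect itself differed between the ages in 2 of 37 members, beside 4.08% of 12709 genes tested at both ages (1.99% upwards, 2.09% downwards). The 5.41% of members called is near that share. Each effect was taken within its own table, since the ages were normalised separately. The summed level of 7 atrial markers was 97166.5 to 185347 in WT and 123277 to 227998 in KO at 6 weeks. At 6 months it was 5921 to 9984 in WT and 37495 to 126876 in KO. Whether the tissue taken differed between the ages, and its part in these differences, was not tested. For Pfkp the log2 change of 6 months minus that of 6 weeks was 1.10 ± 0.25 (adjusted p = 0.0104), and for Ldhb, whose 6-week counts were 4674, 3718 and 2986 in WT and 3950.4, 3862 and 3152 in KO, it was -0.98 ± 0.27 (adjusted p = 0.045). Pfkp lost its call without WT6 or KO3 (adjusted p up to 0.0571) and Ldhb in 12 of 28 settings (up to 0.154), among them without WT6, WT16, KO2, KO3 or KO4. For Eno3 the difference was -1.04 ± 0.36 (adjusted p = 0.108) and for Pfkfb1, which was called at both ages, 0.59 ± 0.43 (adjusted p = 0.514).

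Ratios of related genes within a library do not depend on the scaling of that library. For 8 pairs in 4 comparisons group means of log2 ratios were tested by two-sided exact permutation, and 8 of these 32 tests had a Benjamini-Hochberg adjusted p under 0.05. The called ratios all had an exact p of 0.00794, the smallest that 5 against 5 or 4 against 5 hearts allow, and an adjusted p of 0.0317. At 6 weeks the smallest p possible is 0.1. Leaving out any of KO 2 to KO 5 or any KO+AAV heart left 0 ratios called. With these hearts left out, the smallest possible p rises for KO+AAV against KO but not for KO against WT. All ratio tests share the same adjustment, so the adjusted p of each depends on the others.

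Slc2a1/Slc2a4 rose by 1.70 in KO hearts of 6 months, with log2 ratios of -4.98, -4.49, -5.09, -5.30 and -5.24 in WT and -3.16, -3.53, -3.73, -3.53 and -2.62 in KO, and was at -4.82, -4.55, -4.54 and -4.53 in KO+AAV. The KO+AAV hearts lay nearer to WT than to KO (difference from KO -1.29). At 6 weeks the ratio was -4.26, -4.17 and -4.07 in WT and -3.46, -3.48 and -3.07 in KO, again without overlap (difference 0.83, exact permutation p = 0.1, adjusted p = 0.213).

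Ldha/Ldhb rose by 0.70 in KO and was lower in KO+AAV than in KO by a difference of -0.87, and Pdk1/Pdk2 rose by 0.94 with a difference of -1.07 in KO+AAV. Neither pair overlapped between KO and the other groups of 6 months. Pfkp/Pfkm rose by 1.35 and Eno1/Eno3 by 1.76 in KO. Pgam1/Pgam2 differed by 0.76 (exact permutation p = 0.0238, adjusted p = 0.0693), Hk1/Hk2 by 0.35 (adjusted p = 0.213) and Pfkl/Pfkm by 0.02 (adjusted p = 0.90).

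With Eno1 and Eno1b added together, the log2 ratio to Eno3 was -3.63 ± 0.12 in WT, -1.998 ± 0.53 in KO and -3.07 ± 0.15 in KO+AAV hearts of 6 months (SD, n = 5, 5 and 4). All 3 groups were apart. KO differed from WT by 1.63 (exact permutation p = 0.00794, adjusted p = 0.0282), KO+AAV from KO by -1.07 (exact permutation p = 0.0159, adjusted p = 0.0462) and KO+AAV from WT by 0.55 (exact permutation p = 0.00794, adjusted p = 0.0282).

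**Figure D5:**
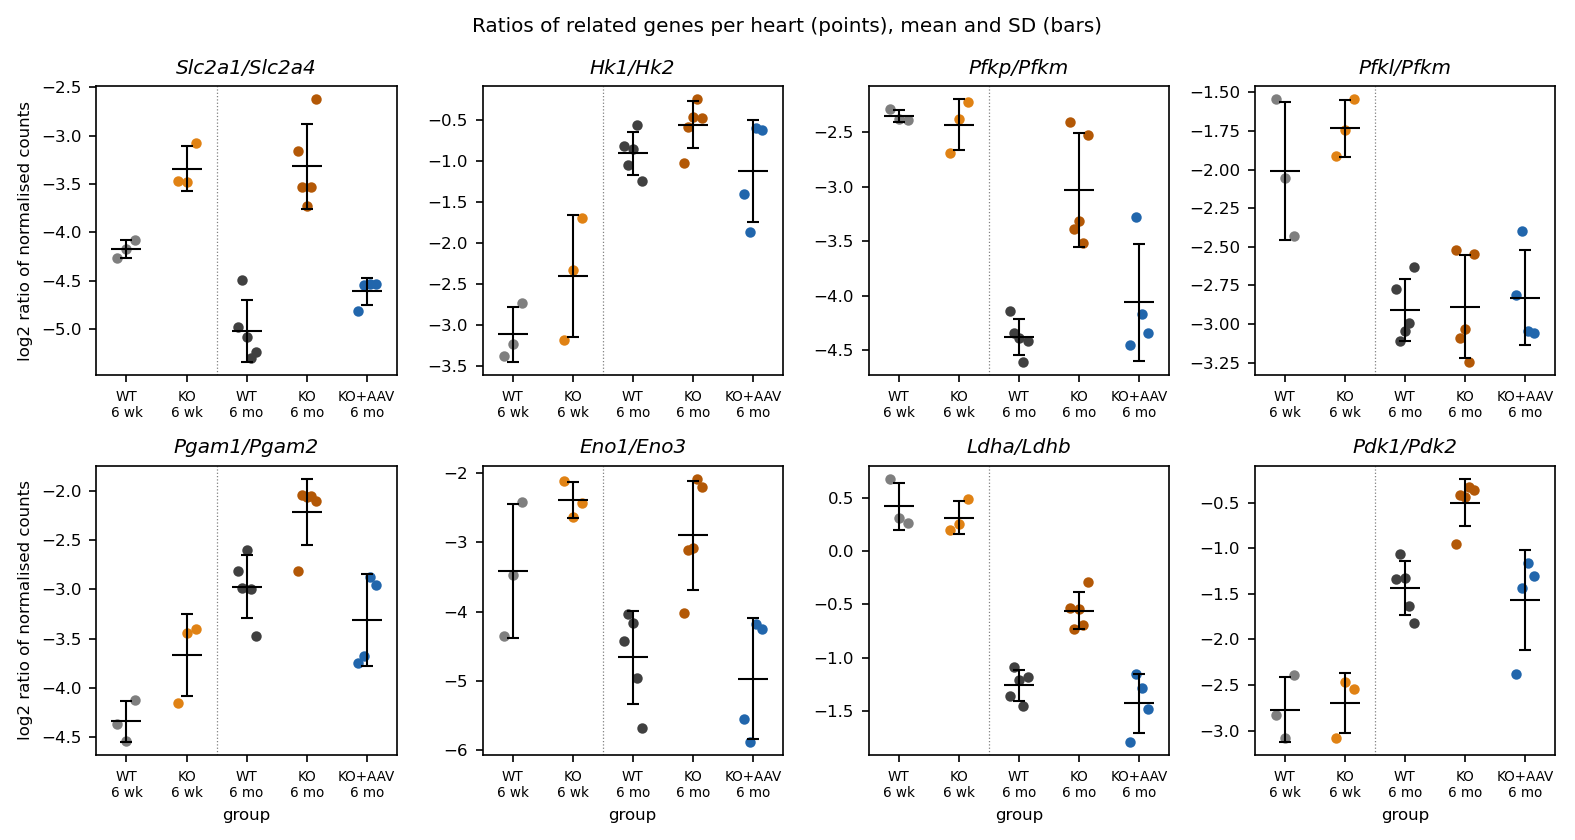
Log2 ratios of the normalised counts of 8 pairs of related members (y axes) in the 5 groups; points are hearts, and bars give the mean and SD. Slc2a1/Slc2a4, Ldha/Ldhb and Pdk1/Pdk2 are higher in all KO hearts of 6 months than in all WT and KO+AAV hearts, while Pfkl/Pfkm overlaps throughout.

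Further genes of the same pathways came from separate lists. Of 25 further glycolysis and pyruvate genes tested at 6 months, 4 were lower in KO and 0 higher (limma), with a median log2 change of -0.18; the 16.0% called compares with 16.3% of all genes. Bsg, the chaperone of lactate transporters, fell from 21882 ± 2241 to 11513 ± 1321 (n = 5 each, log2 -0.93, adjusted p = 0.00070), and Slc2a12, a further glucose transporter, from 108 ± 30.9 to 41.8 ± 26.1 (log2 -1.53, adjusted p = 0.016). The other 2 were the pyruvate dehydrogenase component Pdhx (log2 -0.87) and the transporter Slc16a7 (log2 -0.89), which lost their calls in 6 of 25 and 13 of 24 settings. At 6 weeks 0 of 28 were called.

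Of 25 further glycogen genes 2 were higher and 1 lower in KO hearts of 6 months, a share of 12.0% beside 16.3% of all genes. Stbd1, which binds glycogen, was at 53.4 ± 63.5 in WT and 225 ± 32.3 in KO (adjusted p = 0.00812), Gsk3b had a log2 change of 0.37 (adjusted p = 0.0459) and Ppp1r3b, a glycogen-targeting phosphatase subunit, of -1.16 (adjusted p = 0.0245). The calls of Gsk3b and Ppp1r3b were lost in 14 and 4 of 25 settings, single libraries among them. Of 21 pentose phosphate, hexosamine and polyol genes, Akr1b8 was higher (log2 1.00) and the polyol pathway enzyme Sord (log2 -1.16, adjusted p = 0.00461) and the fructokinase Khk (log2 -0.81, adjusted p = 0.00624) were lower, a share of 14.3% called.

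Of 34 regulators of glucose use, 6 were lower and 1 higher in KO hearts of 6 months, with a median log2 change of -0.10; the 20.6% called is near the 16.3% of all genes. Subunits of the energy sensor AMPK went both ways: Prkab1 fell from 605 ± 55.8 to 298 ± 29.9 (log2 -1.02, adjusted p = 5.35e-05, limma), Prkab2 rose from 511 ± 176 to 1052 ± 169 (log2 1.10, adjusted p = 0.00558), and Prkag1 fell (log2 -0.46). In KO+AAV they were at 468 ± 71.1 for Prkab1 and 451 ± 142 for Prkab2 (n = 4), and both differed from KO (adjusted p = 0.00655 and 0.00652). The coactivator Ppargc1a fell (log2 -1.05, adjusted p = 0.00728), as did the nuclear receptors Ppara (log2 -0.70, adjusted p = 0.0251) and Esrra (log2 -0.39, adjusted p = 0.0305) and the factor Klf15 (log2 -0.53, adjusted p = 0.0101). Esrra lost its call in 13 of 25 settings, Ppara in 8 and Ppargc1a in 2, each including the removal of the 6 libraries.

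The 5 genes outside the set whose log2 values were most like those of Eno3 over the 14 hearts of 6 months, among 9431 genes of mean 100 or more, were Acaa2 (Pearson r = 0.986), Decr1 (0.982), Ckm (0.981), Uqcrc1 (0.981) and Bckdhb (0.980). Acaa2 and Decr1 are enzymes of fatty acid oxidation, Ckm is muscle creatine kinase, Uqcrc1 a subunit of respiratory complex III and Bckdhb a subunit of the branched-chain keto acid dehydrogenase. The hearts share their groups and the leading axis, so these r describe the pattern across groups.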

How the data were processed

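Poly(A) RNA of 20 hearts was sequenced from stranded libraries as read pairs, per the labels' protocols. As deposited by the authors, each age has its own table of gene signal, normalised counts that are fractional and never negative, with the scaling done by the authors separately for each age. The build mm10 comes from the submitters' processing notes. No source used here names the aligner, the counter or its strand setting. Allowing 0.1 step, 67.3% to 93.1% of low values in a library were whole multiples, under the 95% needed to recover reads, so depth is unknown and no count model was run. Columns left out numbered 0.

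Values were taken as log2(value + 1), which understates fold changes of low genes. A gene was tested at 10 or more in 3 libraries at 6 weeks or 4 at 6 months. The test was limma 3.58.1 in R 4.3.3 with a variance trend, two-sided, with Benjamini-Hochberg adjustment over all genes tested, and the 3 groups of 6 months in 1 model; ± after a log2 change is its standard error, and elsewhere the SD. Age effects were compared over the combined standard error with Welch-Satterthwaite degrees of freedom. Positions, transcript lengths and shared 50-base words are from GENCODE M21, and promoters from RefSeq. The code was tested on simulated data.

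Members and gene lists were chosen with earlier results of these data known. All members could be named; those called in a comparison or among the 6 highest are described in full, list genes where called, and beside them the 5 genes closest to the member of smallest p. Alternatives covered the pseudocount, the filter, the scaling, single libraries, the replicate number as a block, the Xist class, and, added after seeing the data, removal of 6 libraries, Y-linked libraries alone and Eno1 summed with Eno1b. Tables and plots used Python 3.11.15, pandas 2.3.3, numpy 2.4.6 and matplotlib 3.10.9.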

Additional observations from a re-analysis of the deposited data

Results flagged for a closer look

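In groups of 4 or 5 hearts, 1 library stood apart from the others in 12 of 135 groups examined, where the criterion flags about 1 in 20 groups by chance; the share is the gap to the nearest heart over the whole range. The share was 0.803 for Pfkl in WT 1 (2736, next 2145), 0.747 for Pkm in WT 1 (23988, next 20042) and 0.770 for Pfkfb3 in WT 2 (496, next 186). In KO 1 it was 0.782 for Gapdh (50880.4, next 46713), 0.752 for Pgk1 (3423, next 4979), 0.920 for the log2 ratio Pgam1/Pgam2 (-2.82, next -2.10) and 0.830 for Pdk1/Pdk2 (-0.96, next -0.44). KO 5 stood apart for Pfkfb1 with 0.755 (19.7, next 43.1). In KO+AAV 1 the share was 0.948 for Pfkfb1 (387, next 106), 0.902 for Mpc2 (5635, next 4438) and 0.929 for the log2 ratio Slc2a1/Slc2a4 (-4.82, next -4.55), and in KO+AAV 2 it was 0.893 for Phka1 (1008, next 598). The KO effect differed between 6 months and 6 weeks for Pfkp (difference of log2 changes 1.10) and Ldhb (-0.98), by the test given in the report.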

How the results depend on the processing

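Called members numbered 1 at 6 weeks, 15 for KO against WT at 6 months, 10 for KO+AAV against KO, 0 for KO+AAV against WT and 2 for the difference between ages. With 1 library left out they ranged over 1 to 2 (2 without KO2, when Hk2 was added), 11 to 17, 7 to 11, 0 to 1 (1 without WT 5 or KO 1) and 0 to 4. Without the 6 libraries of the leading axis the last 4 became 24, 13, 6 and 1. In Y-linked libraries alone KO+AAV against KO had 3. KO+AAV against WT had 1 under equal totals and 1 with the Xist class as covariate, in both cases Fbp2, and the difference between ages had 1 with no filter on low values. No called member changed its direction in any alternative. Of the 8 called ratios, 0 to 8 remained in number with 1 library left out, with 0 without any of KO 2 to KO 5 or any KO+AAV heart. There the smallest possible exact p rises for KO+AAV against KO, and all ratio tests share 1 adjustment. The number was 11 with Eno1b added to Eno1, which also turned the uncalled KO+AAV against WT difference in Eno1/Eno3 from -0.31 to 0.55. Over all genes, 78 calls at 6 weeks became 36 under equal totals and 7 to 154 with 1 library left out; 1509 for KO+AAV against KO became 542 with the Xist class as covariate, 332 in Y-linked libraries alone and 571 to 1816; 178 for KO+AAV against WT became 101 with 2 groups in the model, 645 without the 6 libraries, 36 in Y-linked libraries alone and 108 to 472; and 518 for the difference between ages became 205 to 585. Under equal totals the share of calls that were higher went from 64.1% to 75.0% at 6 weeks, from 49.4% to 33.9% for KO+AAV against KO (8 members higher and 3 lower), from 46.1% to 65.8% for KO+AAV against WT and from 48.8% to 58.9% for the difference between ages. Whether replicate numbers pair the hearts was not settled: 7 of 13 same-numbered pairs correlated above 0.1 (range -0.391 to 0.253). Differently numbered pairs were not correlated, so this count has no baseline. With the number as a block, 13 members were called for KO against WT (2 higher, 11 lower), 11 for KO+AAV against KO and 0 for KO+AAV against WT. With 3 to 5 hearts a group, the number of hearts limits the precision, and the read depth behind each value is unknown.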
